A study of Mus musculus with 4 samples.

Results

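Platelet-derived growth factor (PDGF) genes were followed in fetal mouse lung through the 4 ligand genes *Pdgfa*, *Pdgfb*, *Pdgfc* and *Pdgfd* and the 2 receptor genes *Pdgfra* and *Pdgfrb*. They were taken by gene symbol, and all 6 were found among the 45706 genes of the count table. PDGFs are secreted dimers that bind and activate the receptor tyrosine kinases PDGFR-α and PDGFR-β on neighbouring cells. In the developing lung, PDGF-A made by epithelial cells acts on PDGFR-α-bearing mesenchymal cells, from which alveolar myofibroblasts form, and PDGF-B made by endothelial cells attracts PDGFR-β-bearing pericytes to capillaries. PDGF-C and PDGF-D are released in a latent form and have to be cleaved outside the cell before they can bind.

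RNA of the left lung lobe was sequenced at embryonic day 17 (E17) from 2 *Myh10*+/+ and 2 *Myh10*-/- mouse embryos of strain C57BL/6, none of them treated. *Myh10* encodes the heavy chain of nonmuscle myosin II-B. *Myh10*-/- here stands for homozygotes of a missense allele (*Myh10* L458R/L458R) that came out of a chemical mutagenesis screen with *N*-ethyl-*N*-nitrosourea. The comparison asks which transcripts differ between mutant and wild-type lungs at the saccular stage. The mutation is present in every cell of the embryo, and each library is a mixture of all cell types of the lobe. Sex and litter of the embryos are not given. *Nkx2-1*, the transcription factor that specifies lung epithelium, was counted at between 434 and 455 CPM in the 4 lungs. The wild-type lungs 1 and 2 gave 23156026 and 19116971 counted reads, and the mutant lungs 1 and 2 gave 27573824 and 32055306. *Myh10* itself was counted at 505 and 504 CPM (reads scaled by library size and the TMM factors of edgeR) in the wild-type lungs and at 539 and 513 in the mutant lungs, with an adjusted p of 0.662 in the edgeR comparison. A point mutation need not change the transcript level, so this gene does not check the genotype labels. *Xist*, transcribed from the inactive X chromosome, was high in wild-type lung 1 and mutant lung 2 (3916 and 4457 CPM) and near 0 in wild-type lung 2 and mutant lung 1 (1.84 and 4.10), while the Y-linked gene *Ddx3y* had the opposite pattern. Each genotype thus held 1 lung of either kind, which pairs wild-type lung 1 with mutant lung 2 and wild-type lung 2 with mutant lung 1.

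All 6 genes exceeded the minimum mean of 5 counts and were among the 18763 genes tested. The quasi-likelihood test of edgeR called 0 of the 6 at a p under 0.05 after Benjamini-Hochberg adjustment over all tested genes, where it called 1.64% of all tested genes (308, of which 252 were lower and 56 higher in the mutant lungs). DESeq2 gave an adjusted p to 10032 of the tested genes, leaving out those with lower mean counts, and called 0 of the 4 members among them, with no adjusted p for *Pdgfc* and *Pdgfd*. Leaving out wild-type lung 2 gave 191 called genes (84.8% lower) and leaving out mutant lung 2 gave 1826 (52.8% lower), against 81.8% lower among the 308. At an unadjusted p under 0.05, 2 of the 6 were lower, *Pdgfa* and *Pdgfb*, as were 9.02% of all tested genes. Both mutant lungs lay below both wild-type lungs for 3 of the 6 genes (*Pdgfa*, *Pdgfb* and *Pdgfrb*), as for 24.3% of all tested genes. They lay above both wild-type lungs for 2 of the 6 (*Pdgfd* and *Pdgfra*), as for 23.9% of all tested genes. The median log2 fold change of the 6 genes was -0.0091, against 0.0018 over all tested genes. These p-values set each difference against the spread between 2 lungs per genotype, which edgeR estimates by drawing on all tested genes as well. An adjusted p above the threshold does not show that a level was the same.

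Among the ligands, *Pdgfa* encodes the chain of PDGF-AA, which binds PDGFR-α. It was counted at 58.8 and 61.3 CPM in the wild-type lungs and at 50.4 and 54.1 in the mutant lungs. Both mutant lungs were below both wild-type lungs, and the higher mutant lung was closer to the wild-type lungs than the lower one. The means were 60.1 ± 1.76 (SD, n = 2) and 52.3 ± 2.57 (SD, n = 2) CPM. The fitted difference was -13.0%, a log2 fold change of -0.20 with a standard error of 0.07 and a 95% confidence interval from -0.36 to -0.04. Its unadjusted p was 0.0180 and its adjusted p 0.194 in edgeR. The gene had between 1168 and 1740 reads per lung, for which counting error alone is at most 2.93%.

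*Pdgfb* encodes the chain of PDGF-BB, which binds both receptors. It was counted at 73.0 and 77.9 CPM in the wild-type lungs and at 60.0 and 67.0 in the mutant lungs. Again no mutant lung reached the level of a wild-type lung, and within each genotype lung 2 was the higher one, as for *Pdgfa*. The means were 75.5 ± 3.43 and 63.5 ± 4.95 CPM (SD, n = 2 each). The difference of -15.8% corresponded to a log2 fold change of -0.25 with a standard error of 0.08 and a 95% confidence interval from -0.41 to -0.08. Its adjusted p was 0.125 in edgeR, and by its unadjusted p of 0.00641 it ranked 960 among the 18763 tested genes, the first of the 6. Without mutant lung 2, the lung closer to the wild-type level, the log2 fold change was -0.33 with an adjusted p of 0.0101, and over the 4 fits that each left out 1 lung the adjusted p ranged from 0.0101 to 0.451. The fit without mutant lung 2 called 9.73% of all tested genes. With every gene kept that had at least 1 count, its adjusted p was 0.0377, the lowest over the 12 other settings, in which it reached up to 0.176, and 4.07% of all genes in that fit were called.

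*Pdgfc* and *Pdgfd*, the genes of the latent ligands, had the fewest reads of the 6. *Pdgfc* stood at 10.4 and 11.1 CPM in the wild-type lungs and at 12.1 and 11.0 in the mutant lungs. The genotypes overlapped, since mutant lung 2 lay below wild-type lung 2, and the log2 fold change of 0.10 had a 95% confidence interval from -0.13 to 0.33 and an adjusted p of 0.684. The *Pdgfc* value was 0.05 without wild-type lung 1, 0.03 without mutant lung 1 and 0.18 without mutant lung 2. *Pdgfd* stood at 13.1 and 12.8 CPM in the wild-type lungs and at 14.2 and 13.6 in the mutant lungs. Both mutant lungs were above both wild-type lungs by a small step, and the log2 fold change of 0.10 had a 95% confidence interval from -0.10 to 0.30 and an adjusted p of 0.622. After correcting each lung for the GC content and exon length of genes, the log2 fold change of *Pdgfd* was 0.02, with an adjusted p of 0.957 (0.546 to 0.957 over the 11 other settings that gave one). Reads numbered from 212 to 353 for *Pdgfc* and from 244 to 438 for *Pdgfd*, so that counting error alone amounted to 5.32% or more of each *Pdgfc* value and 4.78% or more of each *Pdgfd* value. Both confidence intervals include 0. Summed over the 4 ligand genes, the wild-type lungs had 155 and 163 CPM and the mutant lungs 137 and 146, so that the sum followed *Pdgfa* and *Pdgfb*.

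*Pdgfra*, the receptor gene of the mesenchymal cells that respond to PDGF-A, was counted at 259 and 237 CPM in the wild-type lungs and at 264 and 260 in the mutant lungs. The mutant lungs were the higher ones, yet wild-type lung 1 came close to mutant lung 2. The means were 248 ± 15.4 and 262 ± 3.45 CPM (SD, n = 2 each). The log2 fold change was 0.08 with a standard error of 0.05, a 95% confidence interval from -0.03 to 0.19 and an adjusted p of 0.468. It was 0.02 without wild-type lung 2 and 0.15 without wild-type lung 1.

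*Pdgfrb*, the receptor gene of pericytes and vascular smooth muscle, was counted at 190 and 177 CPM in the wild-type lungs and at 174 and 169 in the mutant lungs. Here the mutant lungs were the lower ones, and wild-type lung 2 was closer to mutant lung 1 than to wild-type lung 1. The means were 183 ± 8.97 and 171 ± 3.28 CPM (SD, n = 2 each). The log2 fold change was -0.10 with a standard error of 0.05, a 95% confidence interval from -0.21 to 0.01, an unadjusted p of 0.0744 and an adjusted p of 0.353. It was -0.05 without wild-type lung 1, -0.15 without wild-type lung 2 and -0.05 with the correction for GC content and exon length. The receptors thus had estimates of opposite sign, and neither passed the test. Summed over both receptor genes, the wild-type lungs had 448 and 414 CPM and the mutant lungs 438 and 429, with the mutant lungs inside the range of the wild-type lungs. The number of *Pdgfra* reads per *Pdgfrb* read, from which library size drops out, was 1.36 and 1.34 in the wild-type lungs and 1.52 and 1.54 in the mutant lungs. This ratio lay closer within each genotype than between genotypes, but it was looked at after the values were known, and the difference was not tested. The smallest two-sided p of an exact permutation test of 2 lungs against 2 is 0.333.

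Between the lungs with high *Xist* (mutant lung 2 against wild-type lung 1), the log2 difference was -0.12 for *Pdgfa*, -0.13 for *Pdgfb*, 0.08 for *Pdgfc*, 0.06 for *Pdgfd*, 0.01 for *Pdgfra* and -0.17 for *Pdgfrb*. Between the lungs with high *Ddx3y* (mutant lung 1 against wild-type lung 2), it was -0.28 for *Pdgfa*, -0.38 for *Pdgfb*, 0.12 for *Pdgfc*, 0.14 for *Pdgfd*, 0.16 for *Pdgfra* and -0.03 for *Pdgfrb*. Each member had the same sign in both pairs. For a member whose genotypes do not overlap, any pairing gives this. Between same-numbered lungs, the log2 difference of *Pdgfc* was 0.22 for lungs 1 and -0.02 for lungs 2. The size was greater between the *Ddx3y*-high lungs for every member but *Pdgfrb*. With 1 lung of each kind per genotype, whether the genotype difference depends on sex was not tested.

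**Figure D1:**
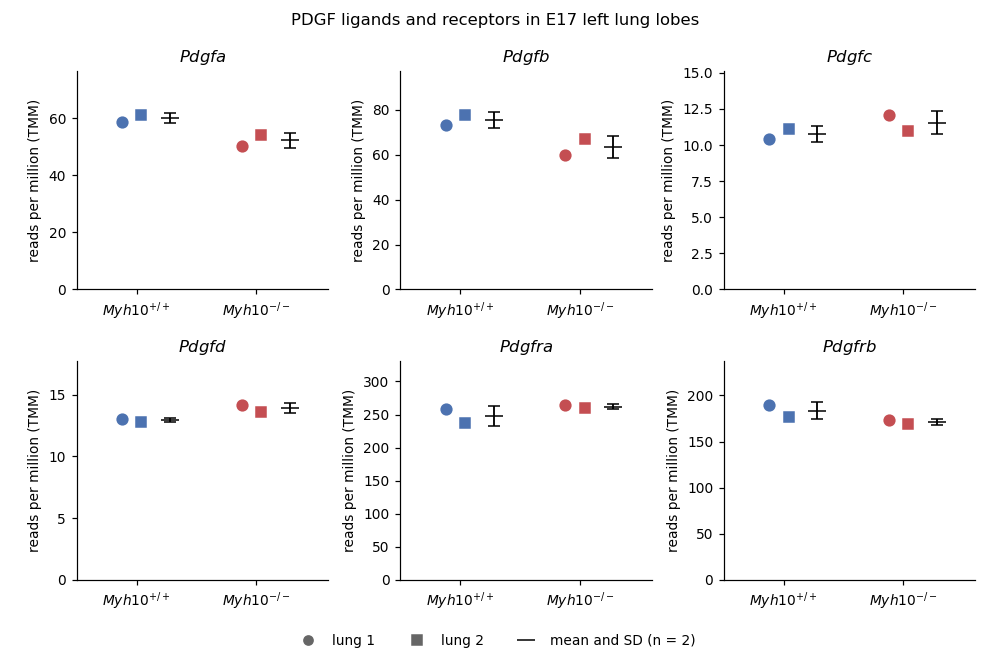
CPM (TMM-normalised, vertical axis from 0) of each of the 6 PDGF genes in the 4 lungs, by genotype; circles are lung 1, squares lung 2, and the black bars give mean and SD (n = 2). The mutant lungs lie lower for *Pdgfa* (50.4 and 54.1 against 58.8 and 61.3) and *Pdgfb* (60.0 and 67.0 against 73.0 and 77.9), and the genotypes overlap for *Pdgfc*.

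**Figure D2:**
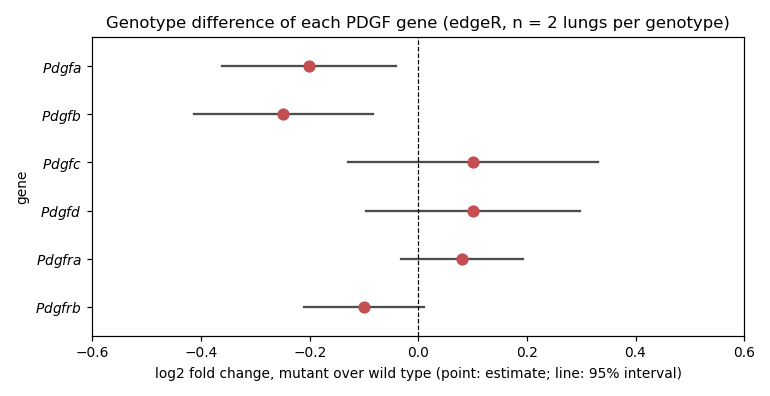
Log2 fold change of each gene, mutant over wild type (horizontal axis), as estimated by edgeR from 2 lungs per genotype; points are estimates, lines are 95% confidence intervals and the dashed line marks no difference. The intervals of *Pdgfa* (-0.36 to -0.04) and *Pdgfb* (-0.41 to -0.08) lie below 0 and those of the other genes include it, while after adjustment over 18763 genes none of the 6 passed 0.05.

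To compare levels between genes, CPM were divided by the length of all annotated exons of each gene in kilobases. On that scale the mean level over the 4 lungs was 32.4 for *Pdgfrb*, 25.4 for *Pdgfra*, 18.0 for *Pdgfa*, 16.7 for *Pdgfb*, 4.25 for *Pdgfd* and 2.19 for *Pdgfc*. This order held within each of the 4 lungs. The levels of *Pdgfa* and *Pdgfb* per kilobase were closest to each other, from 18.9 and 17.6 in wild-type lung 1 to 17.3 and 16.1 in mutant lung 2, and their ranges over the lungs overlapped. Per kilobase of the longest transcript instead of all exons, the order of the receptors turned in all 4 lungs, with *Pdgfra* at 37.8 and *Pdgfrb* at 35.0 in wild-type lung 1, so which receptor transcript was more abundant depended on the length used. The other genes kept their places on both scales, with both receptors above *Pdgfa* and *Pdgfb*, and these above *Pdgfd* and *Pdgfc*.

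On the GRCm38 assembly, *Pdgfa* and *Pdgfra* share chromosome 5 and the other genes lie on chromosomes of their own. *Pdgfa* (ENSMUSG00000025856) occupies 138976014 to 138997370 of chromosome 5 (minus strand), and *Pdgfra* (ENSMUSG00000029231) occupies 75152292 to 75198215 (plus strand). *Pdgfb* (ENSMUSG00000000489) occupies 79995874 to 80014977 of chromosome 15 (minus strand), and *Pdgfc* (ENSMUSG00000028019) occupies 81036416 to 81214040 of chromosome 3 (plus strand). *Pdgfd* (ENSMUSG00000032006) occupies 6168584 to 6378850 of chromosome 9 and *Pdgfrb* (ENSMUSG00000024620) 61045150 to 61085061 of chromosome 18 (both plus strand). Reads overlapping several genes had been left out of the counts, and the sources used here do not say whether the counting took strand into account, so genes with an overlapping neighbour are less certain. For *Pdgfa*, 813 bases of exon overlap the opposite-strand gene *6330403L08Rik*, which was counted at 14.4 and 11.3 CPM in the wild-type lungs and 11.3 and 13.8 in the mutant lungs, with an adjusted p of 0.916. Its values overlapped between genotypes. For *Pdgfra*, 622 bases overlap opposite-strand genes and 30 bases a microRNA gene on the same strand, and for *Pdgfc* 147 bases overlap *Gm16000*, which had 0 counts in all 4 lungs. The exons of *Pdgfb*, *Pdgfd* and *Pdgfrb* share no bases with annotated exons of another gene. When the longest transcript of each member was searched in stretches of 75 bases, as long as a read, 74 of 3447 stretches of *Pdgfc* recurred in another gene (*Gm16000*), and none of the other 5 members did. Among the other genes named here, the exons of *Csf1r*, *Nrp1*, *Stat3*, *Krt8*, *Elf3*, *Ndufa4l2*, *Foxf1*, *Alas2*, *Myh6*, *Myl4*, *Furin*, *Nppa* and *Xist* overlap a further annotated gene, and their values are uncertain to that extent.

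The genes most like *Pdgfa* and *Pdgfb*, the 2 members with the lowest p, were sought among 10973 other genes (mean count of 250 or more) by the root mean square difference of their log2 profiles over the 4 lungs. For *Pdgfb* these were *Hsd17b11*, *Bpgm* and *Jagn1*, at differences of 0.0084, 0.01 and 0.01, where the median gene differed by 0.15. *Bpgm*, the enzyme that makes bisphosphoglycerate in red cells, stood at 63.0 and 67.7 CPM in the wild-type lungs and at 51.7 and 58.7 in the mutant lungs. For *Pdgfa* they were *Mtfr1l*, *Tmem59* and *Bag5*, at differences of 0.0047, 0.0047 and 0.0085, where the median gene differed by 0.12. None of these 6 genes passed an adjusted p of 0.05 in edgeR, and their lowest value was 0.0592 for *Tmem59*. A likeness over 4 lungs describes these libraries only, and overlaps of these 6 genes with others were not looked up.

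The genes that release, cleave or bind PDGF ligands include the proprotein convertase *Furin*, the plasminogen activators *Plat*, which cuts latent PDGF-C, and *Plau*, which cuts latent PDGF-D, and *Sparc*, a matrix protein that binds PDGF-B. In edgeR, 0 of these 10 genes had an adjusted p under 0.05, and DESeq2 called 0 of the 7 with an adjusted p. At an unadjusted p under 0.05, 2 were lower, as were 9.02% of all tested genes. The median log2 fold change of the 10 genes was -0.12. The lowest p belonged to *Nrp1*, a co-receptor of vascular growth factors, at 299 and 288 CPM in the wild-type lungs and 267 and 268 in the mutant lungs. Its mutant lungs were both lower, with a log2 fold change of -0.13 ± 0.05 (SE) and an adjusted p of 0.174. With the correction for GC content and exon length *Nrp1* passed, at a log2 fold change of -0.22 and an adjusted p of 0.0253 (0.0133 to 0.345 over the 12 other settings), which made the count 1. The count over the list also depended on the lung left out, as did the count over all tested genes. When each lung was left out in turn, the log2 fold change of *Nrp1* ranged from -0.16 to -0.11. With 80 bases of its exons it overlaps a microRNA gene.

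The 39 genes that carry the signal from activated receptors include adaptors, Ras, MAP kinases, phosphoinositide 3-kinases and STAT factors. Of these, 2 fell and 0 rose at an adjusted p under 0.05 in edgeR, which called 1.64% of all tested genes. At an unadjusted p under 0.05, 7 were lower and 1 higher, where 9.02% of all tested genes were lower. The median log2 fold change of the 39 genes was -0.06. *Slc9a3r2*, a PDZ scaffold of the family that binds the tail of PDGFR-β, was counted at 131 and 129 CPM in the wild-type lungs and at 99.4 and 103 in the mutant lungs. Both mutant lungs were far below the wild-type lungs, with a log2 fold change of -0.37 ± 0.05 (SE) and an adjusted p of 0.00897. *Stat3*, a transcription factor activated by many cytokine and growth factor receptors, was counted at 126 and 119 CPM in the wild-type lungs and at 101 and 103 in the mutant lungs. Here too the genotypes were apart, with a log2 fold change of -0.26 ± 0.05 (SE) and an adjusted p of 0.0330. Of its exons 72 bases overlap *Stat5a* on the opposite strand, and *Stat5a* was counted at no more than 16.1 CPM in any lung. In the 4 fits that each left out 1 lung, *Slc9a3r2* passed in 4 and *Stat3* in 3. Without wild-type lung 1 *Stat3* did not pass, at a log2 fold change of -0.23. How many genes of the list were called depended on the lung left out, as did the count over all tested genes. Those called in such fits were not all lower. Both genes are used by many other receptors and cell types, and their relation to PDGF was not tested.

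The 14 genes that end or dampen receptor signalling (ubiquitin ligases, phosphatases, Sprouty and Spred proteins) had a median log2 fold change of -0.02. In edgeR, 0 of them had an adjusted p under 0.05 and 0 an unadjusted p under 0.05. DESeq2 called 0 of the 14. *Cbl*, a ubiquitin ligase that marks activated receptors for degradation, had the lowest p. It stood at 45.1 and 36.6 CPM in the wild-type lungs and at 51.5 and 44.4 in the mutant lungs, so the genotypes overlapped, with an adjusted p of 0.303. Its log2 fold change of 0.23 was 0.39 without wild-type lung 1, 0.33 without mutant lung 2 and 0.09 without wild-type lung 2. Whether *Cbl* passed depended on the lung left out, and so did the count over all tested genes.

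Of 14 growth factor response genes, which serum and PDGF switch on within minutes in cultured cells, 1 fell and 0 rose. Their median log2 fold change was -0.09. At an unadjusted p under 0.05, 6 were lower and 1 higher, where 9.02% of all tested genes were lower. Over all tested genes 1.64% were called at an adjusted p under 0.05. The gene that fell was *Ier3*, an early response gene that affects cell survival, at 26.6 and 30.8 CPM in the wild-type lungs and 17.7 and 16.5 in the mutant lungs. This was the widest gap among the signalling and response genes named here, with a log2 fold change of -0.74 ± 0.09 (SE) and an adjusted p of 0.00431. With every gene kept that had at least 1 count, 5 of the 14 passed, 4 as lower and 1 as higher. Among all genes in that fit 4.07% passed. The higher one, named after its values were seen, was *Myc*, with a log2 fold change of 0.30 and an adjusted p of 0.039 in that fit. Leaving out single lungs also changed the count, as it did over all tested genes.

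Related families were read from the same fit. Of 5 VEGF family genes, whose products share the cystine-knot fold of PDGFs, 0 had an adjusted p under 0.05, and 1 was lower and 1 higher at an unadjusted p under 0.05. *Figf*, the gene of VEGF-D, had the lowest p, at 147 and 138 CPM in the wild-type lungs and 155 and 160 in the mutant lungs, with a log2 fold change of 0.14 ± 0.05 (SE) and an adjusted p of 0.191. Of the 6 related receptor genes that could be tested (*Flt3* had too few counts), 0 had an adjusted p under 0.05 and 2 were lower at an unadjusted p under 0.05. *Csf1r*, the macrophage receptor gene, had the lowest p, at 36.4 and 35.3 CPM in the wild-type lungs and 30.4 and 31.3 in the mutant lungs, with an adjusted p of 0.163. Of its exons 873 bases overlap *Hmgxb3* on the opposite strand. Of all tested genes, 9.02% were lower at an unadjusted p under 0.05. DESeq2 called 0 of the 3 growth factor and 0 of the 5 receptor genes to which it gave an adjusted p. The edgeR count of related growth factor genes depended on the lung left out, as did that over all tested genes.

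Marker genes of the cells that make the ligands were compared beside them. In a bulk library, fewer cells of a type and less RNA per cell cannot be told apart. Over all tested genes, 1.64% were called and 9.02% were lower at an unadjusted p under 0.05. Both mutant lungs lay below both wild-type lungs for 24.3% of them, taken as single genes. Of 10 epithelial markers, 4 fell and 0 rose, and 6 were lower and 0 higher at an unadjusted p under 0.05, with a median log2 fold change of -0.25, and their summed level was 1692 and 1708 CPM in the wild-type lungs and 1493 and 1530 in the mutant lungs. These sums did not overlap between genotypes, in the same direction as *Pdgfa*. The genes that fell were *Krt8* and *Krt19*, keratins of simple epithelia, *Cdh1*, the gene of E-cadherin, and *Elf3*, an epithelial transcription factor, with log2 fold changes of -0.33, -0.35, -0.30 and -0.42 and adjusted p-values of 0.00984, 0.0196, 0.0178 and 0.0196. The most abundant per kilobase, *Nkx2-1*, stood at 434 and 455 CPM in the wild-type lungs and at 455 and 448 in the mutant lungs, and no marker was at 0. Per 100 reads on epithelial markers, *Pdgfa* had 3.48 and 3.59 reads in the wild-type lungs and 3.38 and 3.53 in the mutant lungs. On this relative scale the genotypes overlapped. The number of epithelial markers called depended on the lung left out, as did the number over all tested genes. *Cdh1* did not pass without wild-type lung 1, at a log2 fold change of -0.26. *Elf3* did not pass without wild-type lung 2, at a log2 fold change of -0.36.

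Of 10 endothelial markers, 1 fell and 0 rose, and 6 were lower and 0 higher at an unadjusted p under 0.05, with a median log2 fold change of -0.13, and the summed level was 1956 and 1927 CPM in the wild-type lungs and 1786 and 1763 in the mutant lungs. The mutant sums were lower, in the same direction as *Pdgfb*. For comparison, 1.64% of all tested genes were called and 9.02% were lower at an unadjusted p under 0.05. As single genes, 24.3% had both mutant lungs below both wild-type lungs. *Cldn5*, the tight junction claudin of endothelium, fell from 116 and 123 to 87.4 and 101 CPM, with a log2 fold change of -0.34 and an adjusted p of 0.0379, while the most abundant marker per kilobase, *Cdh5*, the gene of VE-cadherin, had overlapping genotypes. No endothelial marker was at 0. Whether any was called depended on the lung left out, and the log2 fold change of *Cldn5* was -0.29 without wild-type lung 2. Per 100 reads on endothelial markers, *Pdgfb* had 3.73 and 4.04 reads in the wild-type lungs and 3.36 and 3.80 in the mutant lungs, with mutant lung 2 above wild-type lung 1. Platelets and their precursors also carry PDGF. Their 8 markers had a median log2 fold change of -0.19, of which 0 had an adjusted or an unadjusted p under 0.05 in edgeR and 0 were given an adjusted p by DESeq2, and summed to 27.2 and 29.0 CPM in the wild-type lungs and 23.8 and 28.0 in the mutant lungs. These sums overlapped, none of the markers was at 0, and the most abundant per kilobase, *Pf4*, was counted at between 8.38 and 10.6 CPM. The lowest p among them was that of *Itga2b*, the integrin of platelets, with an adjusted p of 0.466. How much of the *Pdgfa* and *Pdgfb* values these cell types account for was not tested.

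Cells that bear the receptors were compared in the same way. Of 8 pericyte markers, 1 fell and 0 rose, and 5 were lower and 0 higher at an unadjusted p under 0.05, with a median log2 fold change of -0.24, and the summed level was 481 and 489 CPM in the wild-type lungs and 456 and 448 in the mutant lungs. The mutant sums were the lower ones, as for *Pdgfrb*. Among all tested genes 1.64% were called and 9.02% were lower at an unadjusted p under 0.05. As single genes, 24.3% had both mutant lungs below both wild-type lungs. *Ndufa4l2*, a mitochondrial protein abundant in pericytes, fell from 53.8 and 58.0 to 42.6 and 43.8 CPM, with a log2 fold change of -0.37 and an adjusted p of 0.0326. Whether any pericyte marker was called depended on the lung left out, as did the count over all tested genes. The markers called in such fits were not all lower. Without wild-type lung 2 the log2 fold change of *Ndufa4l2* was -0.32. With the correction for GC content and exon length the log2 fold change of *Ndufa4l2* was -0.27 and its adjusted p 0.0703. The most abundant marker per kilobase was *Higd1b* and none was at 0. Per 100 reads on pericyte markers, *Pdgfrb* had 39.4 and 36.2 reads in the wild-type lungs and 38.0 and 37.7 in the mutant lungs, with the mutant lungs inside the range of the wild-type lungs.

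Of 10 smooth muscle and myofibroblast markers, 0 had an adjusted p under 0.05 and 0 an unadjusted p under 0.05, and their median log2 fold change was -0.07. *Acta2*, smooth muscle actin and the most abundant per kilobase, had the lowest p, at 329 and 365 CPM in the wild-type lungs and 317 and 323 in the mutant lungs, with an adjusted p of 0.320. The summed level was 728 and 783 CPM against 712 and 706, close to each other but without overlap. Lipofibroblasts also bear PDGFR-α, and of their 7 markers 0 had an adjusted p under 0.05 and 2 were lower at an unadjusted p under 0.05. Their sum was 1261 and 1264 CPM in the wild-type lungs and 1160 and 1240 in the mutant lungs, and the lowest p belonged to *Lpl*, lipoprotein lipase, with a log2 fold change of -0.29 and an adjusted p of 0.148. *Tcf21* was the most abundant per kilobase. Of 9 pan-mesenchymal markers, 0 had an adjusted p under 0.05, and 1 was lower and 1 higher at an unadjusted p under 0.05. Of all tested genes, 9.02% were lower at an unadjusted p under 0.05, and 24.3% had both mutant lungs below both wild-type lungs. DESeq2 called 0 of the 6 smooth muscle, 0 of the 6 lipofibroblast and 0 of the 8 pan-mesenchymal markers to which it gave an adjusted p. The pan-mesenchymal sum was 5124 and 5249 CPM in the wild-type lungs and 5117 and 4965 in the mutant lungs, *Vim* was the most abundant per kilobase, and the lowest p was that of *Foxf1*, with a log2 fold change of -0.18 and an adjusted p of 0.107. Without mutant lung 2 the log2 fold change was -0.45 for *Lpl*, -0.22 for *Foxf1* and 0.21 for *Tbx5*, named after its values were seen. Whether these markers passed depended on the lung left out, as did the count over all tested genes. Without mutant lung 1 the log2 fold change of *Lpl* was -0.15. *Lpl* also passed without the filter on low counts (adjusted p 0.0275, range 0.0275 to 0.153 over the 12 other settings), and *Foxf1* with the replicate number as a block (adjusted p 0.0486, range 0.0486 to 0.229). With this block and the correction for GC content and exon length 1 pan-mesenchymal marker passed as higher, *Tbx5* (log2 fold change 0.21, adjusted p 0.0179). With the correction alone, the log2 fold change of *Foxf1* was -0.11. None of these mesenchymal markers was at 0 in any lung. Per 100 reads on pan-mesenchymal markers, *Pdgfra* had 5.05 and 4.51 reads in the wild-type lungs and 5.17 and 5.23 in the mutant lungs, and *Pdgfrb* had 3.70 and 3.37 against 3.39 and 3.40. The mutant lungs were thus the higher ones for *Pdgfra* on this scale too, while for *Pdgfrb* they lay within the range of the wild-type lungs.

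**Figure D3:**
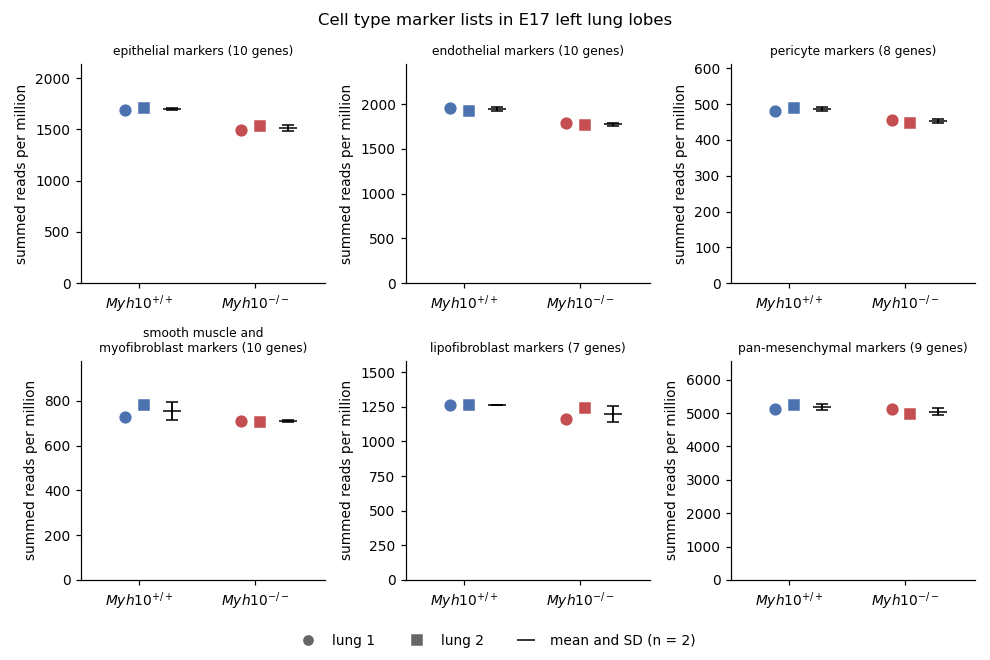
Summed CPM (vertical axis from 0) of the epithelial, endothelial, pericyte, smooth muscle and myofibroblast, lipofibroblast and pan-mesenchymal marker lists in the 4 lungs, by genotype; circles are lung 1, squares lung 2, and the black bars give mean and SD (n = 2). The epithelial sum is 1692 and 1708 in the wild-type lungs and 1493 and 1530 in the mutant lungs, and the endothelial sum is 1956 and 1927 against 1786 and 1763.

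Markers of 4 further groups of cells were read from the same libraries, and 1 more list of markers is not reported here. Of 8 macrophage and leukocyte markers, 0 had an adjusted p under 0.05 in edgeR, DESeq2 called 0 of the 5 to which it gave an adjusted p, and 3 were lower at an unadjusted p under 0.05, *C1qa* with the lowest p (adjusted p 0.162), and they summed to 163 and 157 CPM in the wild-type lungs and 143 and 156 in the mutant lungs, with *Tyrobp* the most abundant per kilobase. Of 8 erythroid markers, 2 fell (*Alas2*, of heme synthesis, and *Hba-a2*, with log2 fold changes of -0.53 and -0.41), 4 were lower and 1 higher at an unadjusted p under 0.05, and the sums were 4278 and 5372 against 3777 and 4292 CPM, with *Hbb-bs* the most abundant per kilobase. These sums overlapped, as mutant lung 2 lay above wild-type lung 1. The higher marker, named after its values were seen, was the embryonic globin gene *Hbb-y*, at 4.15 and 4.10 CPM in the wild-type lungs and 5.93 and 5.59 in the mutant lungs, with a log2 fold change of 0.48 and an adjusted p of 0.146. Without the filter on low counts its adjusted p was 0.0472, and 7 erythroid markers were called, 6 as lower and *Hbb-y* as higher. In that fit 4.07% of all genes were called. Globin genes are near-identical pairs, and reads that fit several genes had been left out, so the values of single globins are uncertain. Of 5 mesothelial markers 1 fell, *Msln*, also the most abundant per kilobase, with a log2 fold change of -0.53 and sums of 338 and 370 against 251 and 304 CPM. Of 8 testable cardiac muscle markers 5 fell (*Myh6*, *Myl7*, *Ryr2*, *Tnnt2* and *Myl4*, with log2 fold changes from -0.73 to -0.44), with *Myl7* the most abundant per kilobase, *Nppa* too low to test and sums of 291 and 351 against 237 and 218 CPM. At an unadjusted p under 0.05, 2 mesothelial and 7 cardiac markers were lower and 0 of either were higher. Of all tested genes, 9.02% were lower at that threshold, and 1.64% were called at an adjusted p under 0.05. DESeq2 called 1 erythroid, 0 mesothelial and 6 cardiac markers, with adjusted p-values of 0.141 for *Alas2*, 0.251 for *Hba-a2* and 0.132 for *Msln*. Counts over these lists depended on single lungs: without wild-type lung 2, edgeR called 0 erythroid and 2 cardiac markers, with adjusted p-values of 0.0757 for *Alas2*, 0.220 for *Hba-a2*, 0.0519 for *Myl7*, 0.202 for *Tnnt2* and 0.261 for *Myl4*. Their log2 fold changes in that fit were -0.32, -0.26, -0.46, -0.36 and -0.34. The log2 fold change of *Msln* was -0.35 without mutant lung 1 and -0.74 without mutant lung 2. Macrophage and mesothelial counts also depended on the lung left out, as did the count over all tested genes. None of the macrophage, erythroid, mesothelial and cardiac markers was at 0 in any lung. What part these cells have in the PDGF values was not tested.

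Of the 6 genes, *Pdgfb* and *Pdgfrb* are only named in this part. For the other 4, the sequence just upstream of the RefSeq start was taken from a RefSeq table (GRCm38.p6). *Pdgfa* has 2 windows in it, chr5:138994282-138994531 and chr5:138994945-138995194 on the minus strand, which lie inside the span of the gene given above and not upstream of its outermost annotated start. As both hold annotated exons, only their positions are given. The other 3 windows are free of annotated exons and are shown so that the starts of a receptor gene and of the latent ligand genes can be read beside their levels: *Pdgfc* chr3:81036166-81036415, *Pdgfd* chr9:6168236-6168485 and *Pdgfra* chr5:75152001-75152250, each on the plus strand, 250 bases long and ending just before the RefSeq start. Both strands were searched for 5 motifs. The TATA box was searched for as TATAAA. The GC box, which Sp1-like factors bind, was searched for as GGGCGG. For the next motif the letters were CCAAT. The AP-1 site was searched for as TGACTCA. The CArG box is the binding site of serum response factor. Of the 32851 windows of this length in the table, 12.4% hold the TATA box, 32.7% the GC box, 33.8% the CCAAT letters, 4.46% the AP-1 site and 1.47% the CArG box. Counted from the start, *Pdgfc* holds a CArG box at -17 to -8, *Pdgfd* holds a TATA box at -160 to -155, and *Pdgfra* holds none of these letters. The *Pdgfa* windows hold 1 and 2 GC boxes and are rich in G and C (66.4% and 72.4%), against 50.8%, 53.6% and 54.4% for *Pdgfc*, *Pdgfd* and *Pdgfra*. A match describes the letters and is no measure of binding. Capitals mark the matches.
Pdgfc: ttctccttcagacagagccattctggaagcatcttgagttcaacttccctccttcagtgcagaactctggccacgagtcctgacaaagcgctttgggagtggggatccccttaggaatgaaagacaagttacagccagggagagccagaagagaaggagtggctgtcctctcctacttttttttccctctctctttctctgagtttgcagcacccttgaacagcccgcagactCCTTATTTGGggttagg
Pdgfd: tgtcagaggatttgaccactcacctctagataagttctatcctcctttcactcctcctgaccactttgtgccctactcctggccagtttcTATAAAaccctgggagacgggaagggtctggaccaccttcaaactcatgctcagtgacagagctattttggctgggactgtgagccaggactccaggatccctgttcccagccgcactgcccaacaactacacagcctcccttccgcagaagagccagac
Pdgfra: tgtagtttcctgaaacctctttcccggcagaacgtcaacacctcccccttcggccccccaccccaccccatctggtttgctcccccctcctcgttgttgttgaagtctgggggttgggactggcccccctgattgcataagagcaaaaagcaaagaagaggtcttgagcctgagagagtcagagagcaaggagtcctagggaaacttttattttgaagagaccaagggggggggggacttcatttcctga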

How the data were processed

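The deposited values are raw counts, reads of each lung on each Ensembl gene, as the authors made them without normalization. According to their processing notes and methods, single-end 75-base reads from stranded libraries were trimmed (Reaper), aligned to GRCm38 (STAR 2.4.0a) and assigned to exons (featureCounts 1.5.1), and reads fitting several genes or regions were dropped. Whether strand was used is not given. Groups come from the labels. Replicates differed by more than counting error (chi-square per degree of freedom 7.30 in wild-type and 12.9 in mutant lungs, and 2.74 and 5.37 without genes on X and Y).

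TMM-normalized counts of genes whose mean was 5 or more (18763) were tested by edgeR 4.0.16 under R 4.3.3 (quasi-likelihood, robust = FALSE), with Benjamini-Hochberg adjustment over all of them. Standard errors and 95% intervals come from the F statistic. The test was tested on simulated data. The members and gene lists were chosen with earlier results of these data known. Named beside the 6 members are, per list, up to 5 genes with an adjusted p under 0.05 or else the gene with the lowest p, the marker most abundant per kilobase, and the 3 genes most like each of 2 members (log2 of CPM + 0.5). Lengths, positions and overlaps are from GENCODE M21, which matched 45143 of 45706 gene IDs. The GC content of a gene is that of its longest transcript.

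Alternatives were library totals or DESeq2 size factors, no filter on low counts, filterByExpr, robust = TRUE, the Wald test of DESeq2 1.42.0 (with its own filter on mean counts), leaving out X, Y and MT genes, a block for the replicate number, a loess correction for GC content and exon length (span 0.3), both together, a threshold of 0.1, and leaving out each lung, where the lone lung is assumed to vary like the other genotype. Crossed replicate numbers as a block were added after seeing the data.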

Additional observations from a re-analysis of the deposited data

How the results depend on the processing

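The 6 members kept the sign of their log2 fold change in 12 alternative settings and in 4 fits that each left out 1 lung. With robust = TRUE and with the threshold of 0.1 the log2 fold change was that given above, so these settings do not test it. Over the 12 settings it ranged from -0.20 to -0.16 for *Pdgfa*, from -0.25 to -0.20 for *Pdgfb*, from 0.10 to 0.13 for *Pdgfc*, from 0.02 to 0.12 for *Pdgfd*, from 0.08 to 0.10 for *Pdgfra* and from -0.10 to -0.05 for *Pdgfrb*. The values nearest 0 of every member but *Pdgfc* came with the correction for GC content and exon length, alone or with the block. The longest transcript of *Pdgfb* holds 60.0% G and C and that of *Pdgfd* 39.9%. Without the filter on low counts 1 member passed, *Pdgfb*, with a log2 fold change of -0.24 and an adjusted p of 0.0377 (0.0377 to 0.176 over the 12 settings), and 1162 genes were called over all 28549 tested (59.2% lower); the cause was not tested.

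Over all tested genes, 308 were called, against 474 with robust = TRUE, 696 at an adjusted p threshold of 0.1, 351 by DESeq2 and 346 with library totals, of which 67.6% were lower against 81.8% with TMM. Leaving out 1 lung gave from 191 (without wild-type lung 2, 84.8% lower) to 1826 (without mutant lung 2, 52.8% lower) called genes, and from 0 to 1 members, *Pdgfb* without mutant lung 2. In these fits the log2 fold change ranged from -0.25 to -0.15 for *Pdgfa*, from -0.33 to -0.17 for *Pdgfb*, from 0.03 to 0.18 for *Pdgfc*, from 0.08 to 0.13 for *Pdgfd*, from 0.02 to 0.15 for *Pdgfra* and from -0.15 to -0.05 for *Pdgfrb*.

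The lungs share only a replicate number, and no source ties equal numbers to a litter or day. With the replicate block 710 genes were called, and 666 with the block and the correction for GC content and exon length, and the block called 0 of the 6 members, with an adjusted p of 0.0697 for *Pdgfb*. The deviations of same-numbered lungs correlated at -0.30 across genes, and at 0.01 without genes on X and Y, and with crossed numbers as a block, chosen after seeing the data and equal to the split by *Xist* and *Ddx3y*, 415 genes and 0 members were called.

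Of the genes that fell, *Slc9a3r2*, *Stat3*, *Ier3*, *Krt8*, *Krt19*, *Cdh1*, *Elf3*, *Cldn5* and the 5 cardiac genes passed in all 12 settings, *Ndufa4l2* (not with the correction for GC content and exon length, alone or with the block) and *Msln* (not with robust = TRUE or DESeq2) in 10 of 12, *Alas2* in 10 of 11 and *Hba-a2* in 8 of 12. *Nrp1* passed in 2 of 12 settings as lower, *Lpl* and *Foxf1* in 1 of 12 as lower, and *Hbb-y* in 1 of 12 as higher. *Myc* passed as higher without the filter on low counts and with the block and the correction together. Over the 12 settings the number called in either direction ranged from 1 to 5 response genes, from 1 to 2 endothelial, from 1 to 3 pericyte, from 1 to 7 erythroid and from 0 to 1 lipofibroblast, pan-mesenchymal, mesothelial and ligand processing genes.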
